A study of Caenorhabditis elegans with 2 samples.

Results

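Cytosolic ribosomal protein genes of the nematode Caenorhabditis elegans were examined for association with GEI-17, the worm member of the PIAS group of SUMO ligases. They were taken by name from the Ensembl annotation, as protein-coding genes whose symbol starts with rpl-, rps- or rla-, which gave 81 of 19973 nuclear protein-coding genes. By name, 50 of these were counted as large subunit genes (47 rpl- genes and 3 rla- genes for the stalk proteins). The other 31, all named rps-, were counted as small subunit genes. The rule goes by name alone, but it was proposed with earlier results of these data known.

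The samples were 2 biological replicates, numbered 4 and 5 and labelled as separate biosamples, of whole worms collected as young adults at 64 h after synchronisation as starved L1 larvae, with males and females pooled. Strain OP572 carries unc-119(tm4063) and the integrated transgene wgIs572, in which gei-17 is fused at its C-terminal end to TY1, EGFP and 3xFLAG tags beside a rescuing unc-119 copy, and chromatin was precipitated through the GFP tag. GEI-17 was therefore read through a tagged copy in a single line, in all tissues together, so a signal in many cells and a strong signal in few cannot be told apart. Untagged worms were not analysed here, so GEI-17 signal and background of other origin cannot be told apart. The data were 3 lists of 30000 candidate summits, from replicate 4, from replicate 5 and from both pooled, and the 1030 pooled summits (1010 nuclear) that passed the irreproducible discovery rate (IDR) filter. Each summit carries a signal value that the authors deposited, whose scale is not stated and which was read only within its own list. Read counts were not used, so the depth behind each value is unknown.

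A ribosome joins a large subunit, which forms peptide bonds, and a small subunit, which reads the messenger RNA. Their proteins are needed in about equal amounts, and growing and egg-producing animals transcribe these genes at high levels. PIAS ligases promote the attachment of the small modifier SUMO to proteins, many of them on chromatin. Many worm transcripts are trans-spliced to a short leader, so the annotated start of a gene often marks the splice site, and transcription begins further upstream.

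Candidate summits lay upstream of most ribosomal protein genes, and 20 of the genes had a summit that passed IDR. The promoter window ran from 1000 bp upstream to 200 bp downstream of the gene start, and the highest pooled summit in it was taken for each gene. A candidate was found for 64 of the 81 genes (79.0%), against 30.7% of the other protein-coding genes and 30.9% of all 19973. The summits passing IDR were the highest of the pooled list, with a lowest signal of 110.449 where the next candidate had 110.407. Passing thus amounts here to a cut on pooled signal. A gene is called bound below where its window held at least 1 summit passing IDR. This held for 20 of the 81 ribosomal protein genes, or 31.3% of the 64 with a candidate (95% exact binomial interval 20.2 to 44.1), against 578 of the 6111 other genes with a candidate (9.46%). The background over all 6175 genes with a candidate was 9.68%. Over all 81 genes the bound share was 24.7%, against a background of 2.99% of all protein-coding genes. Because the genes were proposed with earlier results of these data known, and some share a summit, no p-value is attached to these shares. The intervals cover the counting of genes only.

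The 64 genes with a candidate had a median pooled signal of 71.1, from 21.4 for rpl-4 to 835 for rpl-3. The other genes with a candidate had a median of 41.11. Among the 20 bound ribosomal protein genes the median was 214, and among the 578 other bound genes 163. By signal, 6 ribosomal protein genes stood among the 50 highest protein-coding genes, and 7 among the 50 highest on the autosomes.

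**Figure D1:**
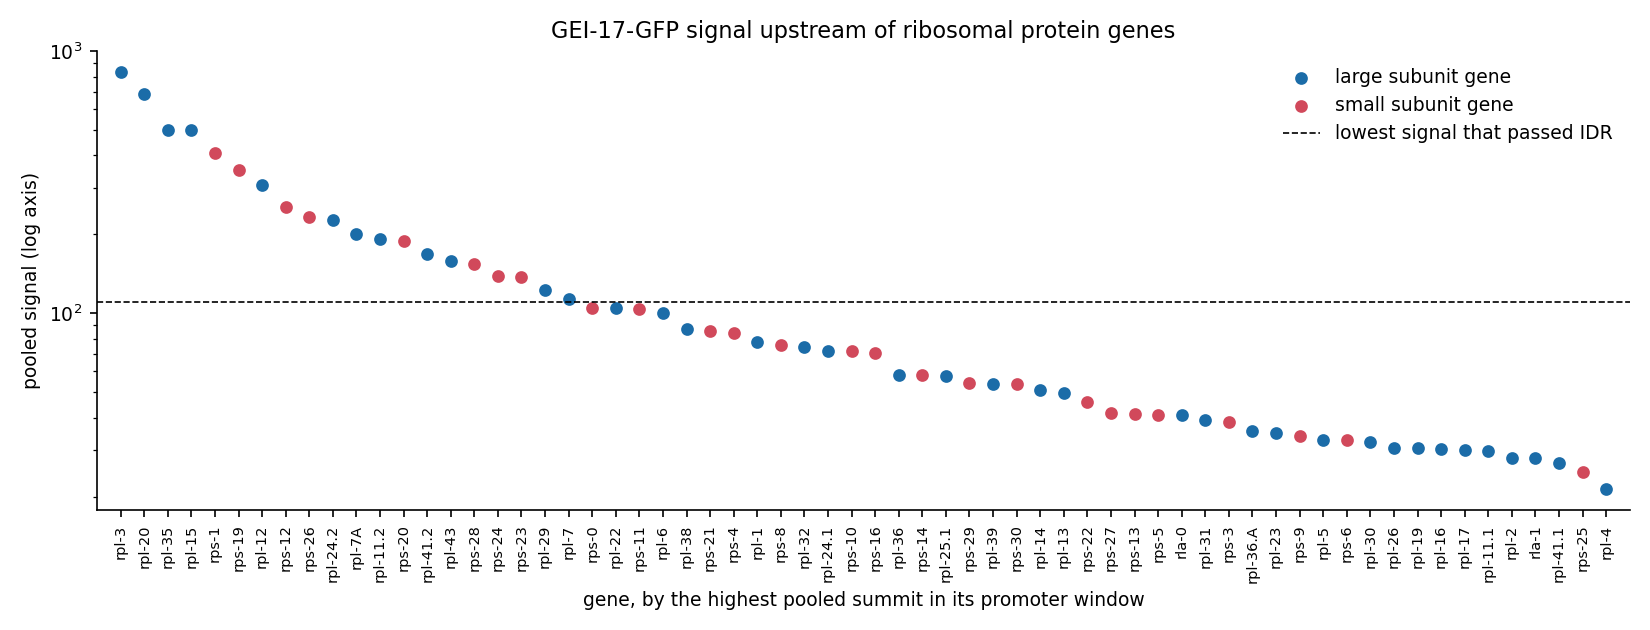
Pooled signal (log axis) of the highest summit in the promoter window for each of the 64 ribosomal protein genes with a candidate, in descending order, with large subunit genes in blue and small subunit genes in red. The dashed line is the lowest signal that passed IDR (110); 20 genes lie above it, and both colours run through the whole order.

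The highest signals belonged to 4 large subunit genes, followed by a small subunit gene. The gene rpl-3 encodes a protein that reaches the peptidyl transferase centre, and its summit, at -278 bp from the start (upstream is negative), had a pooled signal of 835, with 411 in replicate 4 and 428 in replicate 5. It was the highest autosomal promoter summit and stood at rank 3 among all protein-coding genes. The region of rpl-20 had a signal of 684 (292 in replicate 4 and 389 in replicate 5), with the summit at -289 bp. That of rpl-35, whose protein lies at the exit of the peptide tunnel, had 502 (244 in replicate 4 and 257 in replicate 5), with the summit at -463 bp. For rpl-15 the signal was 499 (244 in replicate 4 and 252 in replicate 5), at -344 bp. The highest small subunit gene was rps-1, with 409 (172 in replicate 4 and 234 in replicate 5), at -252 bp. All 5 were within the 100 highest summits of the pooled list and of each replicate, at pooled ranks 44 to 90 of 30000.

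The sequences under these 5 summits are shown because they hold short words in common. Each is 101 bp centred on the pooled summit, in build ce11 (WBcel235, RefSeq assembly), written 5′ to 3′ on the strand of the gene. Capitals mark 4 words of 7 letters, described further on, or their reverse complements: the words are TACGGTA, then CGAGTGT, then AAGTGTA, and last GTCTCGC.
rpl-3 (chrIII:3867526-3867626, plus strand): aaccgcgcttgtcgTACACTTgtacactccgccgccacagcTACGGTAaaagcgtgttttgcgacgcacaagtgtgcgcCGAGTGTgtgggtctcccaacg
rpl-20 (chrIV:4750017-4750117, minus strand): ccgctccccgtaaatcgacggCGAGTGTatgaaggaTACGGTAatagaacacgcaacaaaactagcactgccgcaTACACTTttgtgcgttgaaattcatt
rpl-35 (chrIII:7854621-7854721, plus strand): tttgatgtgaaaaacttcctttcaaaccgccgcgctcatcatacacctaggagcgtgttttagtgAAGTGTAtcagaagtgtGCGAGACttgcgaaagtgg
rpl-15 (chrIV:654870-654970, minus strand): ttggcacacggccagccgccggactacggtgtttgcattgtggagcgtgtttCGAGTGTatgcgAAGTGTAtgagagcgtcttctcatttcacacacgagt
rps-1 (chrIII:4475616-4475716, plus strand): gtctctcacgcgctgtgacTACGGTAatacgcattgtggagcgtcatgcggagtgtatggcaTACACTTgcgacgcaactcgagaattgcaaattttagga

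The remaining 8 bound large subunit genes had pooled signals between 114 and 309. The highest was rpl-12, which encodes a protein at the base of the stalk, with a pooled signal of 309, and 121 in replicate 4 and 189 in replicate 5. Its summit lay at -26 bp, the closest of the 20. Next came rpl-24.2 (226.9), whose human relative RSL24D1 acts in assembly of the large subunit and which is counted here by its name, rpl-7A (200.8) and rpl-11.2 (192), whose protein binds 5S ribosomal RNA. The other 4 were rpl-41.2 (169), rpl-43 (159), rpl-29 (122) and rpl-7 (114). The summit of rpl-43 was the most distant of the 20, at -769 bp.

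The other 7 bound small subunit genes had pooled signals between 138 and 351. The highest was rps-19, with a pooled signal of 351, and 148 in replicate 4 and 202 in replicate 5. Its human counterpart is mutated in the anaemia of Diamond and Blackfan. It was followed by rps-12 (253), by rps-26 (234), whose protein lines the channel where messenger RNA leaves, and by rps-20 (189). Lower in the list were rps-28 (155), rps-24 (139) and rps-23 (138), the last for a protein of the decoding centre.

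Large and small subunit genes were bound in nearly the same share in the promoter window used, but the difference depended on how summits were assigned. Of the large subunit genes with a candidate, 12 of 38 were bound (31.6%, 95% exact binomial interval 17.5 to 48.7), and of the small subunit genes 8 of 26 (30.8%, interval 14.3 to 51.8), a difference of 0.810 percentage points. The 12 include rpl-24.2, which was counted by its name, and the difference without it was not computed. Over all genes of each subunit the shares were 24% of 50 and 25.8% of 31, so the order turned with the denominator. With each summit given only to the nearest start, 10 large and 3 small subunit genes were bound, a difference of 20 points. The sign turned in a wider window of 2000 bp upstream to 500 bp downstream (-0.361), on autosomes (-0.214), with 2060 summits (-6.68) and without replicate 5 (-4.17). The median signal of genes with a candidate was 57.9 in the large and 73.8 in the small subunit, and among bound genes 214 and 211. The order of the medians over genes with a candidate turned in a narrower window of 500 bp upstream to 100 bp downstream (76.1 large and 72.0 small), with the nearest start (74.2 and 70.2) and without replicate 4 (39.1 and 36.4). The middle 50% of the large subunit values ran from 32.5 to 149, and of the small subunit values from 42.8 to 138. The intervals and the ranges of the subunits overlap widely, and at these numbers of genes they do not show that the subunits are alike. Each replicate was also ranked alone, taking as many top summits as passed IDR (1030). In replicate 4, 12 large and 9 small subunit genes were among them, 21 in all of the 60 with a candidate, where the background was 8.57% of genes. In replicate 5 there were 11 large and 8 small subunit genes, 19 of 59, where the background was 9.17%.

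**Figure D2:**
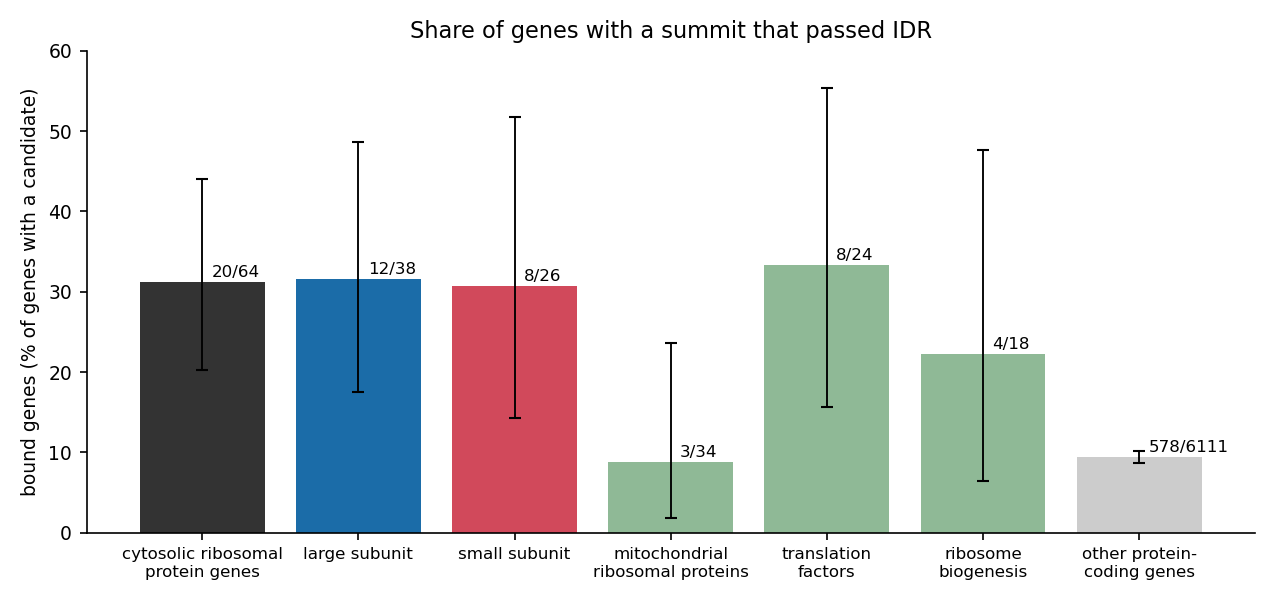
Share of genes with a candidate in the promoter window that were bound, for the ribosomal protein genes and their subunits, for 3 related gene lists and for all other protein-coding genes; bars start at 0 and whiskers are 95% exact binomial intervals. Bound and total numbers stand beside the bars, and the large and small subunit bars (12 of 38 and 8 of 26) reach nearly the same height.

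Of the 3 stalk genes none was bound. These encode the acidic proteins P0, P1 and P2, which recruit translation factors to the large subunit. The highest pooled summit had a signal of 40.9 for rla-0 and 28.0 for rla-1, and rla-2 had no candidate in the pooled list. A count of 0 of 3 genes says little about the stalk as a group.

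The genes nearest to the limit of 110 were spread over both subunits. Just above it were rpl-29 and rpl-7. Just below were rps-0 (105), rpl-22 (105), rps-11 (104), rpl-6 (101) and rpl-38 (87.0), and 27 of the 64 genes were within the 2060 highest pooled summits, where the background was 17.3%. Within the upper 515 of the summits that passed IDR there were 14, against a background of 5.07%. The order of these values is a ranking within 1 pooled list and carries no error of its own.

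No candidate was listed in the pooled window of 17 genes, 12 of the large and 5 of the small subunit. They were rpl-9, rpl-10, rpl-18, rpl-21, rpl-25.2, rpl-27, rpl-28, rpl-33, rpl-34, rpl-37, rpl-42, rla-2, rps-2, rps-7, rps-15, rps-17 and rps-18. Since the pooled list stops at its 30000 highest summits, with a lowest signal of 20.3, these genes are not shown to lack GEI-17. A candidate was listed in at least 1 replicate for 8 of the 17. In replicate 4 these were rps-18 (35.4, rank 3280), rps-2 (25.8), rpl-27 (25.13), rpl-21 (21.7), rla-2 (20.8) and rpl-33 (15.2). In replicate 5 it was rpl-18 (21.8), and rpl-10 had 13.6 in replicate 4 and 15.1 in replicate 5.

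Of the 3 ribosomal proteins with a pair of numbered gene copies, rpl-11 and rpl-41 had 1 bound copy each. The X-linked rpl-11.2 was bound (192), and the autosomal rpl-11.1 had a pooled signal of 29.9, with 23.6 in replicate 5 and no candidate in replicate 4. In worms rpl-11.2 serves somatic tissue and rpl-11.1 the germ line. Of the rpl-41 genes, which lie 700 bp apart on chromosome I, rpl-41.2 was bound (169) and rpl-41.1 was not (26.9). In the remaining pair, neither rpl-25.1 (57.4, at 127 bp downstream of its start) nor rpl-25.2 was bound. The rpl-24 genes share a number but are not copies of 1 protein by the relation given above; rpl-24.1 had 72.0 and was not bound. The handling of reads that match both copies of a pair was not stated.

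The replicates placed the summits of bound ribosomal protein genes close to the pooled ones, at most 57 bp away in replicate 4 and 94 bp in replicate 5. All 20 had a candidate in both replicates, and in all 20 both replicate summits were within 100 bp of the pooled one, with median offsets of 11.5 bp in replicate 4 and 10 bp in replicate 5. This was so for 87.7% of the 578 other bound genes. Of the 44 ribosomal protein genes with a candidate that were not bound, 27 had a candidate in both replicates and 14 (31.8%) had both within 100 bp, against 23.7% of other such genes. Across the 48 ribosomal protein genes with a summit in both replicates, Pearson's r of the log2 signals was 0.871 and Spearman's rho 0.829. The points are genes of the same 2 libraries, and r was 0.935 over the 20 bound and 0.265 over the 28 others, of which 1 had no pooled candidate. Bound genes were selected by high pooled signal, so their small offsets and high r cannot be told apart from that selection.

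Of the 20 bound genes, 18 were among the 1030 highest summits of both replicates, as were 360 of the 578 other bound genes. The background was 9.79% of all genes with a candidate in both, bound or not. Bound summits have the highest signals of the list pooled from both replicates, so high counts at bound genes cannot be told apart from that selection. The exceptions among the 20 were rpl-29 and rpl-7. The summit of rpl-29 stood at rank 471 in replicate 4 (signal 77.1) and 2303 in replicate 5 (49.6). That of rpl-7 stood at 1179 and 1429, outside the top of either list. The signal of rps-26 also ranked higher in replicate 4 (141) than in replicate 5 (414), as did that of rpl-11.2 (243 and 679). Of the genes that were not bound, 3 reached the top of 1 replicate: rps-16 (rank 589 in replicate 4, 25135 in replicate 5), rpl-22 (893 and 1524) and rpl-1 (20953 in replicate 4, 1013 in replicate 5). For rps-16 the summits lay inside the gene, 79 bp past the start in replicate 4 and 155 bp past it in replicate 5. For rpl-1 they were on different sequence, at -849 bp in replicate 4 and -434 bp in replicate 5. The high values of rps-16 and rpl-1 thus rest on 1 replicate each.

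**Figure D3:**
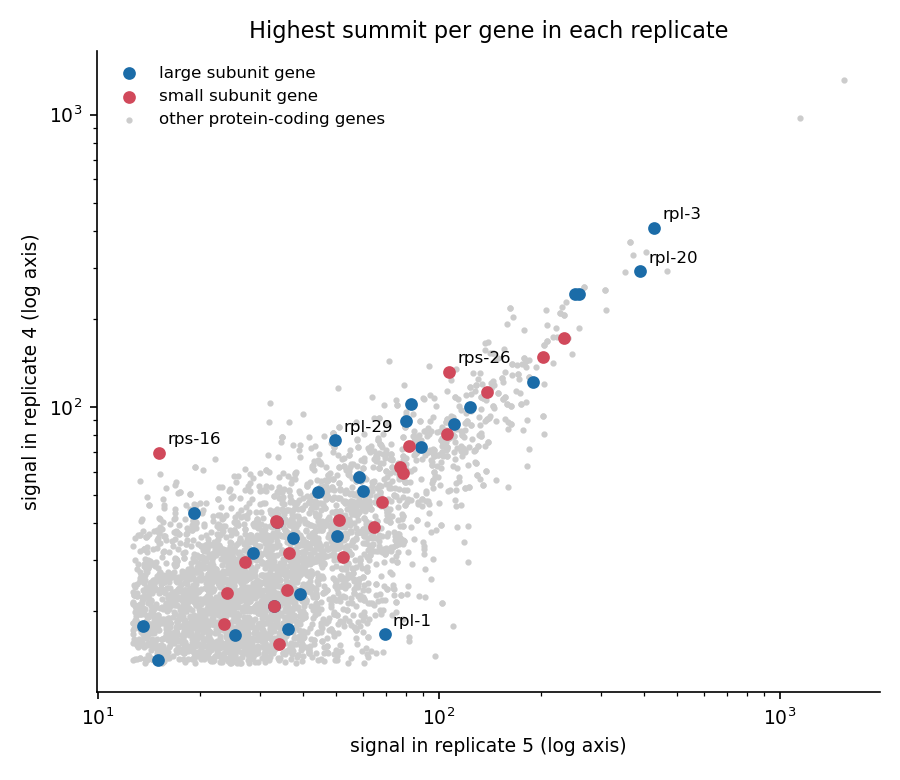
Signal of the highest summit in each gene's window in replicate 4 (vertical) against replicate 5 (horizontal, both log axes), for large subunit genes (blue), small subunit genes (red) and other protein-coding genes with a pooled candidate (grey). Bound genes are not marked. The ribosomal protein genes with the highest signals run in a band up to rpl-3 (411 and 428), while rps-16 and rpl-1 lie far off it on opposite sides.

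Bound summits were concentrated in a band from 200 to 500 bp upstream of the gene start. All 20 were upstream, between -769 and -26 bp, with a median of -287 bp. Of these, 15 (75%) were in the band, among them 8 of the 12 large and 7 of the 8 small subunit genes, against 194 of the 578 other bound genes (33.6%), whose median was -247 bp. The band was chosen after the positions had been seen. The ribosomal protein genes that were not bound had 26 of 44 summits in the band (59.1%), against 25.8% of other genes with a candidate that were not bound. Only 6 of the 64 highest summits were at or downstream of the start, in rps-16, rpl-25.1, rpl-13, rps-9, rpl-16 and rps-25, none of them bound.

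**Figure D4:**
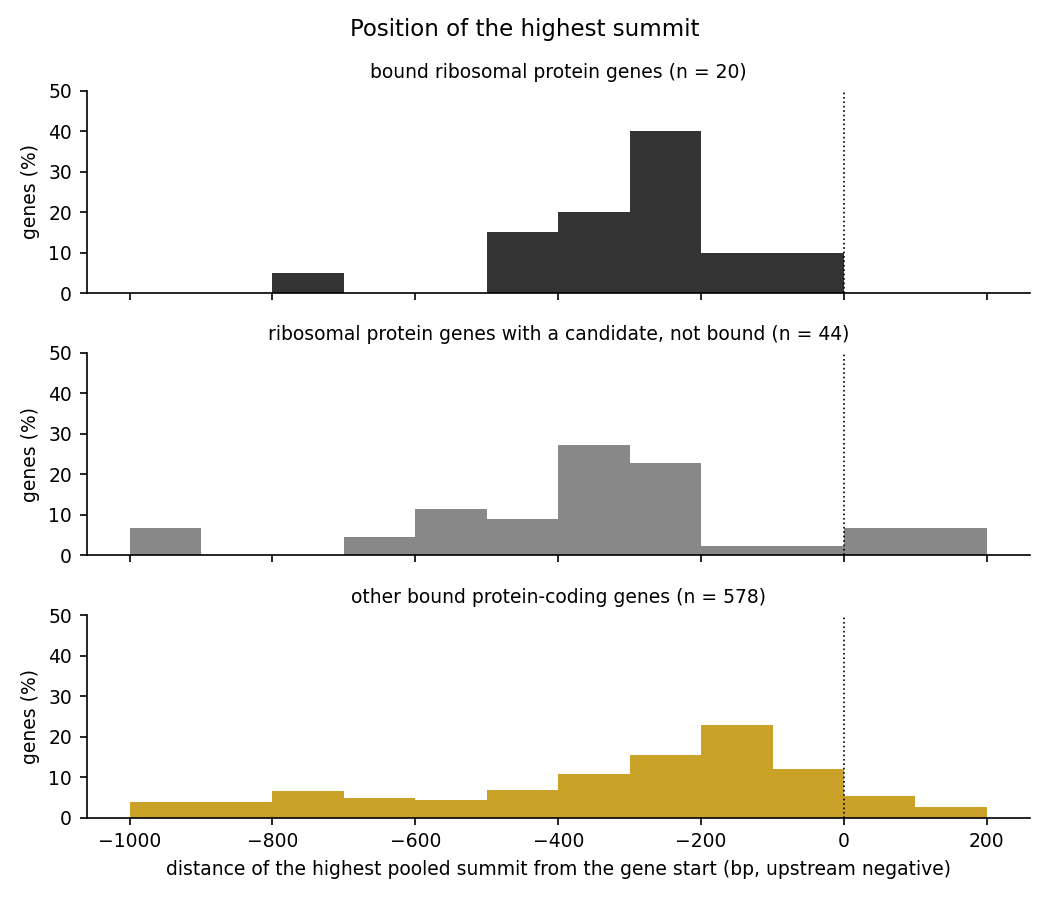
Percentage of genes by the distance of their highest pooled summit from the gene start (bins of 100 bp, upstream negative, dotted line at the start), for bound ribosomal protein genes (top), ribosomal protein genes with a candidate that were not bound (middle) and other bound protein-coding genes (bottom). Most bound ribosomal protein genes (15 of 20) lie between 500 and 200 bp upstream, and the other bound genes are spread more widely, with the highest bin closer to the start.

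Many of these summits lay between a pair of genes that point away from each other, and position cannot say to which they belong. The nearest upstream gene was divergent and within 1000 bp for 48 of the 81 ribosomal protein genes (59.3%), against 17.05% of other protein-coding genes. In this arrangement 12 of 38 ribosomal protein genes with a candidate were bound (31.6%), against 180 of 1286 other genes. With the upstream gene on the same strand and within 1000 bp the values were 4 of 19 (21.1%) and 6.81%. With no gene within 1000 bp upstream they were 3 of 6 and 9.77%, and with the start inside another gene 1 of 1 and 5.57%. These counts are small, and the differences were not tested. All 4 bound genes with the upstream gene on the same strand were of the large subunit (rpl-3, rpl-11.2, rpl-41.2 and rpl-29).

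Of the 20 bound genes, 14 (7 of each subunit) shared their summit with the window of another protein-coding gene, against 41.0% of other bound genes. The neighbours included ifet-1, a translational repressor (at rps-1), hsr-9, the worm relative of 53BP1 (at rps-19), lin-54, the DNA-binding subunit of the DRM complex (at rpl-12), and rab-11.1, a GTPase of recycling endosomes (at rpl-7). The others were Y17G9B.5 (at rpl-20), K11H12.8 (at rpl-15), ska-3 (at rps-12), tmem-107 (at rps-26), set-21 (at rpl-7A), ekl-4 (at rps-20), Y48B6A.1 (at rpl-43), Y41D4B.4 (at rps-28), dpm-3 (at rps-23) and thoc-7 (at rpl-29). For 13 of the 20 the ribosomal protein gene had the nearest start. When each summit was given only to the gene with the nearest start, 10 large and 3 small subunit genes remained bound, 13 of 40 genes with a candidate (32.5%). The matching share over all genes is not given here. The background of 9.68% keeps shared summits, so the 32.5% cannot be set against it. The small subunit genes that kept a summit were rps-1, rps-28 and rps-24. The 6 bound genes that shared with no other window were rpl-3, rpl-35, rpl-24.2, rpl-11.2, rpl-41.2 and rps-24.

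In 3 cases the divergent neighbours were both ribosomal protein genes, and each time they joined a large and a small subunit gene over 1 summit. The summit between rpl-24.1 and rps-10 had a pooled signal of 72.0, that between rpl-36 and rps-14 had 58.3, and that between rpl-39 and rps-30 had 53.9. None of the 3 passed IDR. The 64 genes with a candidate therefore stood for 61 summits.

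Bound ribosomal protein genes lay on every chromosome but V. They were most frequent on IV, where 8 of 13 genes with a candidate were bound, against 10.7% of all genes with a candidate on that chromosome. Chromosome I had 6 of 20 and III had 4 of 15, where the share of all genes was 10.4% on each. II had 1 of 7, against 9.35%, and V had 0 of 7, against 6.23%, counts that cannot be told apart from those shares. The highest gene on V was rpl-38 at 87.0. On X, which carries 336 of the 1030 summits that passed IDR, rpl-11.2 was bound and rpl-25.1 was not, against 11.9% of all genes with a candidate there.

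Bound regions at these genes were narrow. Their width ran from 151 bp (rpl-24.2) to 444 bp, and 14 of 20 were below 444 bp, the width of 29396 of the 30000 pooled regions. Among other bound genes 39.8% had a narrower region, and all 44 ribosomal protein genes that were not bound stood at 444 bp. The 14 narrower regions were also the 14 with the highest signal.

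Small RNA genes were frequent inside ribosomal protein genes but not at the summits. A snoRNA gene lay within the body of 13 of the 81 genes (16.05%), against 0.900% of other protein-coding genes. All 13 had a candidate, and 5 were bound (rpl-15, rps-12, rpl-7A, rps-23 and rpl-7), against 99 with a candidate and 19 bound among the 179 other host genes. A snoRNA gene was within 200 bp of the summit for 1 of the 20 bound genes, rps-26 (next to F39B2.14), and for 2.94% of other bound genes. No tRNA or snRNA gene was within 200 bp of a bound ribosomal protein summit, against 3.81% and 1.56% of other bound genes. Genes annotated as ncRNA were near 3 of the 20, at rps-1, rpl-11.2 and rpl-7, and near 20.4% of other bound genes.

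The words marked in capitals were the most frequent of 8192 words of 7 letters within 50 bp of the 20 bound summits, counting both strands together. They were picked for that frequency, so their counts at the bound summits are a description and nothing rests on them. TACGGTA was in 7 of the 20 (35%), in 2 of the 41 other ribosomal protein summits (4.88%), in 3.11% of 450 other bound promoter summits and in 1.17% of 28929 other candidates. CGAGTGT was in 7 of the 20, in 4 of 41 (9.76%), in 2.44% and in 0.795% of the same sets. AAGTGTA was in 5 of the 20 (25%), in 1 of 41 (2.44%, rpl-38), in 2.44% and in 1.22%. CGAGTGT and AAGTGTA share a run of letters and are not independent words.

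The 5 bound summits with AAGTGTA were the 5 with the highest signal (rpl-3, rpl-20, rpl-35, rpl-15 and rps-1). All of them stood above 400, and the other 15 at 351 or below. Outside the ribosomal protein genes the medians with and without the word were close: the 11 other bound promoters with it had a median signal of 156, against 161 for the 439 without it. TACGGTA was in rpl-3, rpl-20, rps-1, rps-20, rpl-43, rps-23 and rpl-7, and CGAGTGT in rpl-3, rpl-20, rpl-15, rpl-24.2, rpl-11.2, rps-23 and rpl-29. At least 1 of the 3 words was in 12 of the 20 bound summits (60%), against 5 of the 41 other ribosomal protein summits (12.2%) and 7.56% of other bound promoters. The words were picked at these 20 summits, so the 60% and the match of AAGTGTA with the highest signals are descriptions only. The remaining 8, among them rps-19 and rpl-12, held none of the 3 in this window. Median GC content was 49.5% at the bound summits and also at other bound promoters, against 46.5% at the other ribosomal protein summits.

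The fourth word, GTCTCGC, was the most frequent with at least 3 letters C or G at the ribosomal protein summits that were not bound. It was in 9 of 41 (22.0%), in 3 of the 20 bound ones (15%), in 6.22% of other bound promoters and in 0.937% of other candidates. The following sequences, on the same scheme as above, show a bound summit with none of the words (rpl-12), the bound copy of the rpl-11 pair, and 3 summits that were not bound and hold GTCTCGC.
rpl-12 (chrIV:13240627-13240727, minus strand): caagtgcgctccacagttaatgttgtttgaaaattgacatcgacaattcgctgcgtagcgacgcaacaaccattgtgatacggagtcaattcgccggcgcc
rpl-11.2 (chrX:2242964-2243064, minus strand): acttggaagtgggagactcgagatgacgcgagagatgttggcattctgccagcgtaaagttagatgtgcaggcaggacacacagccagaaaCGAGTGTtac
rpl-6 (chrIII:7208028-7208128, plus strand): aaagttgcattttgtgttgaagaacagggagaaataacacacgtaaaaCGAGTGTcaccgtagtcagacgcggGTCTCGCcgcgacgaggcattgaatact
rps-4 (chrIV:7084876-7084976, minus strand): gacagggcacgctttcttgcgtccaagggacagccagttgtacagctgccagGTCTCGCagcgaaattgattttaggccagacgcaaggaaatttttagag
rps-8 (chrIV:7314112-7314212, minus strand): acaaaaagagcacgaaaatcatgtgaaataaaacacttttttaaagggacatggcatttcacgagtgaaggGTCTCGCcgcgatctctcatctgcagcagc

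None of 5 common short motifs was found within 50 bp of the 20 bound summits on either strand. These were the GAGA repeat, the palindromic heat shock element, the E-box CACGTG, the splice acceptor TTTCAG and the TATA box TATAAA. The other bound promoters held them at 3.56%, 1.11%, 4.67%, 6.67% and 4.67% in that order. A count of 0 among 20 summits cannot be told apart from these rates.

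Related genes gave the following shares, whose differences were not tested. Mitochondrial ribosomal proteins, which build the separate ribosome of that organelle, were bound at 3 of 34 genes with a candidate (8.82%, 95% exact binomial interval 1.86 to 23.7), close to the background of 9.68%. The 3 were mrpl-23 (166, with no candidate in replicate 5), mrpl-28 (134) and mrpl-45 (131). A candidate was found for 48.6% of the 70 mitochondrial ribosomal protein genes. The ubiquitin fusion genes ubq-2 and ubl-1, which also yield a ribosomal protein of the large and the small subunit, had signals of 172 and 94.9, and the first was bound.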

How the data were processed

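Per the labels and the listings deposited beside the samples, regions in build ce11 were called for either replicate and for the pooled alignments, against a control alignment, and the IDR list was derived from them. The peak caller and the IDR cut-off: not given in the sources used here. Per the deposited listings the files are narrowPeak lists, and the signal of each summit is the authors' own value. It was used to rank and filter within a list. The q values were not used.

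Genes came from Ensembl release 115 (WBcel235, the same build as ce11), and bases were read from the RefSeq copy of that genome. All 91 annotated start codons of the ribosomal protein genes read ATG in it. A summit is column 2 plus the offset to the peak, and distances run from the gene start on the gene's strand. Ties and shared summits were kept.

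No test was run: there was 1 group, and genes are not replicates. Shares have exact (Clopper-Pearson) 95% intervals. The genes, lists and comparisons were chosen with earlier results of these data known. The genes named were fixed by a rule: all bound genes, the 5 next below the limit, gene copies, stalk genes, genes with no candidate and genes that share a summit. Other genes, the 200 to 500 bp band, the 7-letter words, the gene arrangement and snoRNA host counts were chosen after their values were seen.

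Assignment of summits to genes was tested on simulated summits. Alternatives were other promoter windows, the nearest start, autosomes alone, a stricter and a looser threshold, and either replicate alone. Python 3.11.15, numpy 2.4.6, pandas 2.3.3, scipy 1.17.1, pysam 0.24.0 and matplotlib 3.10.9 were used.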

Additional observations from a re-analysis of the deposited data

How the results depend on the processing

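The counts of bound ribosomal protein genes (20, of which 12 large and 8 small subunit) stayed within 1.5 times under every alternative except these. With each summit given only to the nearest start, 40 genes had a candidate, 13 were bound and 3 of them were of the small subunit; with the upper 515 summits, 5 small subunit genes were bound. Adding ubl-1 and ubq-2 gave 21. The large minus small difference in bound share had no stable sign: it was 0.810 points as reported, 4.67 in the narrower window (500 bp upstream to 100 bp downstream), -0.361 in the wider one (2000 and 500 bp), 20 with the nearest start, -0.214 on autosomes, 4.45 with the upper 515 summits, -6.68 with 2060 summits, and between -4.17 and 0.353 when either replicate was left out. The median signal of genes with a candidate (71.1 in all, 57.9 large, 73.8 small) was 74.2, 76.1 and 72.0 in the narrower window, so that the order of the subunits turned, 61.1 for the large subunit in the wider one, and 73.1, 74.2 and 70.2 with the nearest start, so that the order turned again. From either replicate alone, on another scale, it was 37.4 to 39.1, 35.3 to 39.1 and 36.4 to 40.5; without replicate 4 the large subunit (39.1) stood above the small (36.4), and without replicate 5 below it (35.3 and 40.5). The median distance over all 64 genes (-314.5 bp) was -289 in the narrower window, -321 in the wider one, -271 with the nearest start and -288.5 to -287 from either replicate. The cause was not tested. No paired analysis was possible because there was 1 group and no test. Depth is unknown, so no limit of detection can be given beyond the lowest listed signal.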

Other observations

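Genes that act with the ribosome, taken from lists chosen by name, were also among the bound genes. Of 24 translation factor genes (eif- and eef-) with a candidate, 8 were bound (33.3%, 95% exact binomial interval 15.6 to 55.3), against 9.68% of all protein-coding genes with a candidate. The highest was eif-3.C, for a subunit of initiation factor eIF3 (pooled signal 301, with 139 in replicate 4 and 170 in replicate 5), followed by eef-1A.2 (287), for an elongation factor.

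Of 18 ribosome biogenesis genes with a candidate, 4 were bound (22.2%, interval 6.41 to 47.6). The background of 9.68% lies inside that interval, so this count cannot be told apart from it. These were pro-1 (219), rbd-1 (115.1), nol-58 (112) and imp-3 (111). The last 3 stood just above the lowest signal that passed IDR, with nol-58 at rank 1009 and imp-3 at rank 1016 of the 1030. The median distance of the 4 summits was -161.5 bp, against -287 bp for the 20 bound ribosomal protein genes, a difference that was not tested.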
